A study of Rattus norvegicus with 6 samples.

Results

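The fibrillar collagens described here are the transcripts of Col1a1, Col1a2, Col3a1, Col5a1 and Col5a2, measured in whole adrenal glands of SHR, the spontaneously hypertensive rat, and of WKY, the normotensive Wistar-Kyoto strain usually set beside it. The members were chosen by name, as every probe set annotated to one of these 5 genes, which gave 9 of the 8740 probe sets of the Affymetrix RG-U34A array that are not controls. Col1a1 had 4 probe sets, Col3a1 had 2, and Col1a2, Col5a1 and Col5a2 had 1 each. None was annotated to a further gene. Total RNA from 3 SHR samples and 3 WKY samples was hybridised to 1 array each. The labels give no treatment, age, sex or number of animals. Whether the replicates were different animals is not stated, and each p-value therefore refers to variation among the arrays, part or all of which may be technical.

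Fibrillar collagens are long triple helices that are secreted as procollagens, trimmed outside the cell and packed into the fibrils that give tissue its tensile strength. Type I collagen joins alpha 1 and alpha 2 chains, encoded by Col1a1 and Col1a2, and is the bulk fibril protein of most connective tissue. Type III, a homotrimer of the Col3a1 chain, shares fibrils with type I in distensible tissues such as vessel walls and organ stroma, and type V, built mainly from the Col5a1 and Col5a2 chains, sits within type I fibrils and sets their start and width. In the adrenal gland these proteins are laid down by fibroblasts and capsule cells and in the walls of vessels.

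RefSeq promoter windows (GRCr8) were given for 3 of the 5 genes, Col1a2, Col5a1 and Col5a2. Upstream stretches of Col1a2 and Col5a2 are shown as examples from a type I and a type V chain gene. Col1a2 was called lower in SHR and Col5a2 did not pass. The 2 stretches cover mostly different positions, so their letters cannot be compared position by position. They run 5′ to 3′ on the strand of each gene, Col1a2 at chr4:33518307-33518416 on the plus strand and Col5a2 at chr9:55090172-55090301 on the minus strand. Capitals mark matches on either strand to CCAAT, the CCAAT box. They also mark TATAAA, a core promoter element. The third search was for CAGAC, a SMAD-type element.
Col1a2: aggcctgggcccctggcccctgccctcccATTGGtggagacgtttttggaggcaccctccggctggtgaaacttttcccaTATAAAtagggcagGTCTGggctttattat
Col5a2: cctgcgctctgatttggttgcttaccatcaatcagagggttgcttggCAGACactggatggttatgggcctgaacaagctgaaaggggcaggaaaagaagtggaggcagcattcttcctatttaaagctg
The Col1a2 stretch runs from 250 to 141 bases upstream of the annotated start. It holds a reversed CCAAT 221 bases upstream, TATAAA 170 bases upstream and a reversed CAGAC 156 bases upstream. The Col5a2 stretch runs from 150 to 21 bases upstream and holds a CAGAC 103 bases upstream and neither of the other motifs. Outside the stretches shown, the Col1a2 window held a reversed CAGAC 23 bases upstream. The Col5a2 window held CAGAC 2 and 29 bases downstream of the start. The window of Col5a1 held none of the 3. The motifs did not overlap one another. Of 33469 windows of 300 bases, 37.5% held CCAAT, 14.2% TATAAA and 50.1% CAGAC on either strand. Col3a1 and Col5a2 are neighbours on chromosome 9 in this annotation, with 0 genes listed between them, while Col1a1, Col1a2 and Col5a1 lie on chromosomes 10, 4 and 3.

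Median intensities were alike between arrays, at 798.3 to 879.0 in SHR and 831.1 to 899.5 in WKY. Values are probe set intensities on a linear scale, and changes are log2(intensity + 181.5), SHR minus WKY. All 9 member probe sets passed the filter on dim signals and were tested with limma among 5244 probe sets, with adjusted p under 0.05 as the threshold for a call. One control for RNA quality, the 3' signal of hexokinase divided by its 5' signal, read 4.21 in SHR replicate 2, 2.09 and 2.16 in the other SHR arrays, and 1.96 to 2.54 in WKY. The instrument files place SHR replicate 1 and all 3 WKY arrays in a first hybridization run and SHR replicates 2 and 3 in a second, so SHR replicate 1 is the one SHR array that shares a run with WKY.

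Every fibrillar collagen probe set was dimmer in SHR than in WKY, and 6 of the 9 fell past the threshold, spread over Col1a1, Col1a2, Col3a1 and Col5a1. None of the 9 was called higher. Over all tested probe sets, 1.95% were called, 0.877% lower in SHR and 1.07% higher. The log2 changes ran from -1.78 to -0.58 with a median of -0.88, beside a median of -0.007 over all tested probe sets, 50.9% of which were below 0. All 9 had an unadjusted p under 0.05 and a negative change, beside 7.11% of tested probe sets with both. In 8 of the 9 the 3 SHR arrays lay below the 3 WKY arrays, which was so for 10.5% of tested probe sets. Of the 27 SHR values, 26 lay below every WKY value of their probe set. These values share the same 3 SHR arrays and are not separate replicates, and this count was not made over all tested probe sets. In whole-gland RNA, fewer collagen-making cells and less collagen RNA per cell cannot be told apart.

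**Figure D1:**
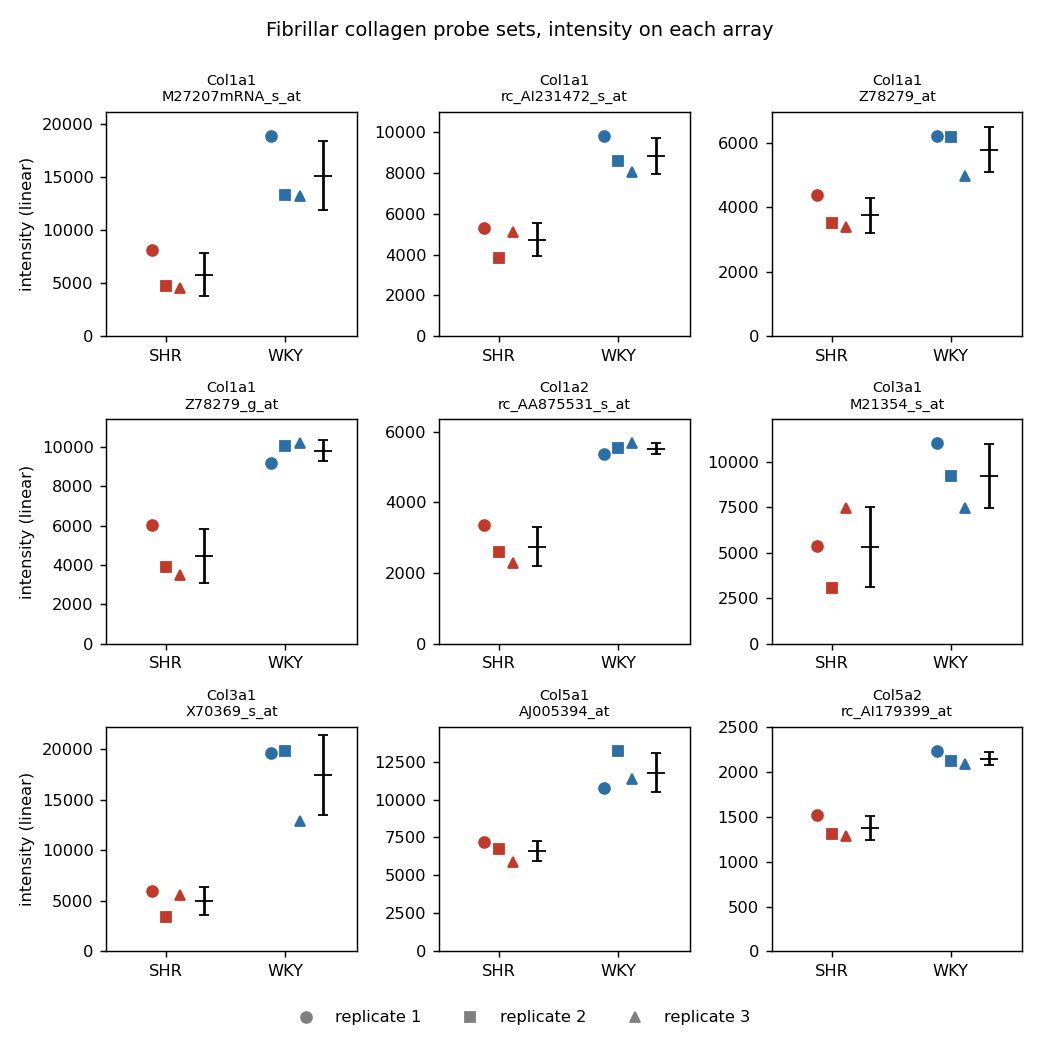
Intensity (linear scale, from 0) of the 9 fibrillar collagen probe sets in SHR and WKY adrenal glands. Coloured symbols are single arrays, and the black bar with whiskers is the mean ± SD (n = 3). SHR arrays lie below WKY arrays in 8 panels, and in Col3a1 M21354_s_at SHR replicate 3 lies within the WKY range.

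Col1a1, the alpha 1 chain of type I collagen, was read by 4 probe sets. The first, M27207mRNA_s_at, read 8166.5, 4745.5 and 4499.5 in SHR replicates 1 to 3, against 18934.8, 13294.0 and 13256.2 in WKY replicates 1 to 3. The strains were well apart here, with SHR replicate 1 the highest of its strain and WKY replicate 1 the highest of all. The means were 5804 ± 2050 in SHR and 15162 ± 3268 in WKY (SD, n = 3 each), and the log2 change was -1.39 ± 0.25 (SE; limma adjusted p = 0.0354). It ranked 41st from the bottom of the 5244 tested changes.

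The second Col1a1 probe set, rc_AI231472_s_at, read 5301.5, 3810.8 and 5087.8 in SHR and 9833.0, 8601.4 and 8074.0 in WKY. It fell by 0.88 ± 0.17 on the log2 scale (SE; limma adjusted p = 0.0429), with no overlap between the strains. The remaining 2 share 1 sequence name. Z78279_g_at read 6007.0, 3872.7 and 3492.7 in SHR, against 9185.5, 10044.2 and 10174.1 in WKY, and fell by 1.14 ± 0.20 (SE; limma adjusted p = 0.035). Z78279_at read 4377.5, 3509.3 and 3384.5 in SHR, against 6225.4, 6180.0 and 4982.0 in WKY. Its strains did not overlap, and its change of -0.60 ± 0.17 did not pass (SE; limma adjusted p = 0.137). All 4 Col1a1 probe sets thus had the same sign, 3 were called, and their sizes ran from -1.39 to -0.60. The mean of the 4 changed by -1.01 and was called (limma adjusted p = 0.0289).

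Col1a2, the alpha 2 chain that completes the type I heterotrimer, read 3346.2, 2601.4 and 2285.9 in SHR and 5356.0, 5531.2 and 5667.1 in WKY. The WKY arrays were close together and all stood above the SHR arrays. Means were 2744 ± 544 in SHR and 5518 ± 156 in WKY (SD, n = 3 each). The log2 change of -0.98 ± 0.17 was called (SE; limma adjusted p = 0.0302), an intensity 50.3% lower in SHR by the means. RNA for both chains of type I collagen was lower in the SHR arrays, and the change of Col1a2 lay within the range of the 4 Col1a1 probe sets.

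Col3a1, the chain of type III collagen, held the largest change among the members. X70369_s_at read 5942.2, 3428.5 and 5616.7 in SHR, against 19631.4, 19811.6 and 12898.9 in WKY. Even the highest SHR array stood under the lowest WKY array by a wide margin. The means were 4996 ± 1367 in SHR and 17447 ± 3940 in WKY (SD, n = 3 each), 71.4% lower in SHR. The log2 change was -1.78 ± 0.25 (SE; limma adjusted p = 0.013), 18th from the bottom of the tested changes.

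The other Col3a1 probe set, M21354_s_at, gave a smaller and less even difference. It read 5368.9, 3078.6 and 7467.7 in SHR, against 11016.6, 9213.7 and 7455.5 in WKY, so that SHR replicate 3 stood just above WKY replicate 3. This was the one member whose strains overlapped, and its change of -0.85 ± 0.30 did not pass (SE; limma adjusted p = 0.258). The 2 probe sets of Col3a1 were set against each other within each array. The log2 ratio of M21354_s_at to X70369_s_at was -0.14, -0.15 and 0.40 in SHR, against -0.82, -1.09 and -0.78 in WKY, a difference of 0.93 with no overlap. The exact two-sided permutation test gave p = 0.1, the smallest that 3 arrays against 3 allow. No difference could have passed it, so the test does not decide this one. The mean of the pair changed by -1.31, with a limma adjusted p of 0.0531.

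Col5a1, the alpha 1 chain of type V collagen, read 7196.0, 6738.2 and 5894.5 in SHR and 10735.8, 13195.1 and 11355.7 in WKY. The strains stood apart, with means of 6610 ± 660 in SHR and 11762 ± 1279 in WKY (SD, n = 3 each). Its log2 change of -0.81 ± 0.14 had the smallest SE of the members and was called (limma adjusted p = 0.0302). Col5a2, the alpha 2 chain, was the dimmest member, at 1526.0, 1312.2 and 1292.5 in SHR and 2234.8, 2128.3 and 2089.4 in WKY. The SHR arrays were all below the WKY arrays, yet the change of -0.58 ± 0.16 did not pass (SE; limma adjusted p = 0.14). Its 95% interval of -0.96 to -0.21 overlaps that of Col5a1, -1.14 to -0.49.

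**Figure D2:**
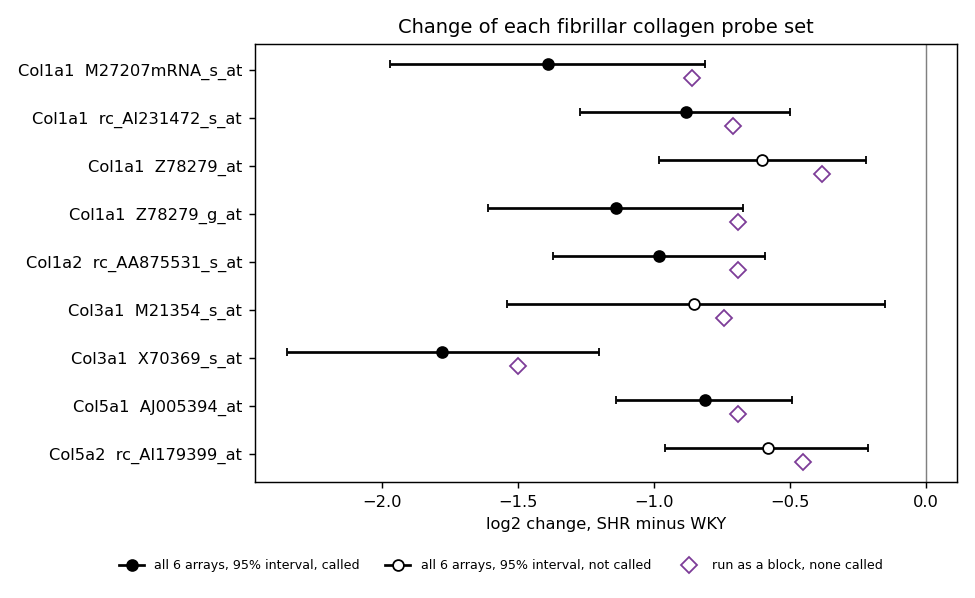
Log2 change (SHR minus WKY, horizontal axis) of each fibrillar collagen probe set. Circles with bars are limma estimates over 6 arrays with 95% intervals, filled where adjusted p is under 0.05, and diamonds are estimates with the hybridization run as a block. All points lie left of 0, from -1.78 to -0.58 for circles and from -1.50 to -0.38 for diamonds.

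The sizes of the changes were compared between members through the log2 ratio of each pair of probe sets within an array. Of 36 pairs, 13 had ratios that did not overlap between strains, each at the smallest exact permutation p of 0.1. Among all pairs of tested probe sets, 21.2% did not overlap in this way. After Benjamini-Hochberg adjustment over the 36 pairs the smallest value was 0.277. The widest difference was between X70369_s_at of Col3a1 and Col5a2, whose log2 ratio averaged 1.70 ± 0.37 in SHR and 2.89 ± 0.32 in WKY (SD, n = 3 each), a difference of -1.19. Among the 7 pairs from the same gene, 4 did not overlap between strains. One of them was the pair Z78279_at and Z78279_g_at, whose log2 ratio was -0.44, -0.14 and -0.04 in SHR and -0.55, -0.68 and -1.0 in WKY. No pair could have passed, because 3 arrays against 3 allow no p smaller than 0.1. The test therefore does not decide whether the 5 genes differ in size of change, and no order is read from it. In Affymetrix naming the suffix _s_at, which 5 of the 9 carry, marks probes that can match more than 1 transcript.

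The members were also followed array by array. Each probe set was centred on its own mean over the 6 arrays, and the 9 centred log2 values were averaged in each array. The averages were -0.25, -0.72 and -0.54 in SHR replicates 1 to 3, against 0.60, 0.54 and 0.37 in WKY replicates 1 to 3. All 9 members lay above their own mean in each WKY array, while 0, 0 and 1 did so in SHR replicates 1 to 3. SHR replicate 1 was the highest SHR array in 8 of the 9 probe sets, beside 39.9% of all tested probe sets.

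**Figure D3:**
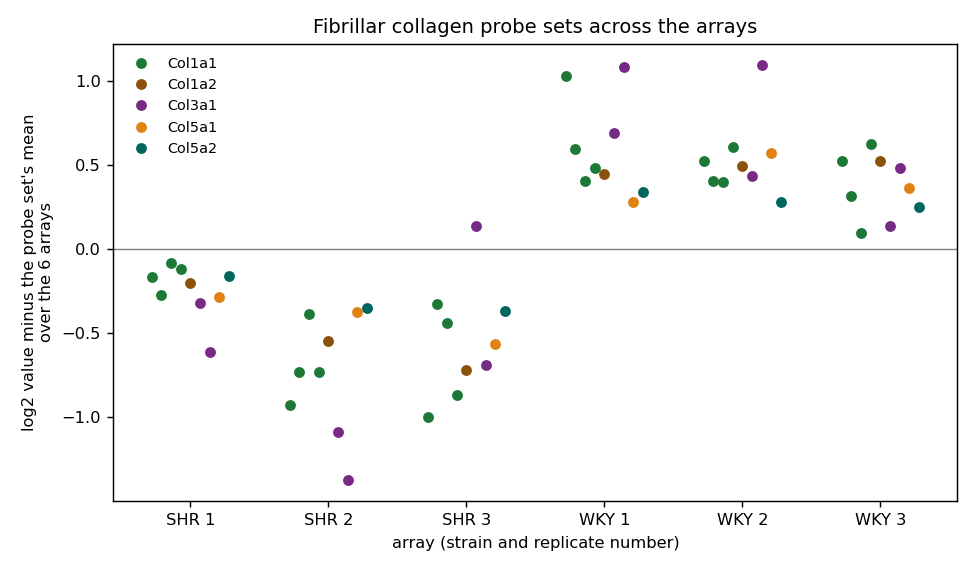
Log2 value of each fibrillar collagen probe set minus its mean over the 6 arrays (vertical axis), by array, with 1 point per probe set coloured by gene. SHR replicate 1 averages -0.25 and lies nearer 0 than SHR replicates 2 and 3, and the single SHR point above 0 is Col3a1 M21354_s_at in SHR replicate 3.

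That array is also the one SHR array hybridised in the run of the WKY arrays. With the run as a block, which sets SHR replicate 1 against WKY, all 9 changes stayed negative at -1.50 to -0.38 with a median of -0.69, and 0 of 9 were called (limma adjusted p from 0.222 to 0.698). Over all tested probe sets 0.172% were called lower there, and 6 members had an unadjusted p under 0.05, beside 5.23% of all tested probe sets that were lower by that rule. M27207mRNA_s_at of Col1a1 moved most, to -0.86 ± 0.25, while X70369_s_at of Col3a1 stood at -1.50 ± 0.35 and Col5a1 at -0.69 ± 0.21 (SE). A fit of the first run alone gives the same estimates by construction. It has 1 SHR array, whose spread is taken from WKY, and called 0 members and 0.0191% of all probe sets lower. SHR replicate 1 lay below every WKY array of its run in 9 of 9 probe sets, beside 25.0% of all tested probe sets. The second run held SHR arrays only and gives no value.

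Fewer members were called in each fit without 1 array. Without SHR replicate 1, 4 of the 9 were called, and 1 without SHR replicate 2, 1 without SHR replicate 3, 0 without WKY replicate 1, 0 without WKY replicate 2 and 1 without WKY replicate 3 (limma adjusted p). Calls over all 5244 tested probe sets also fell, to 53, 38, 48, 52, 59 and 58 in the same order, against 102 with all 6 arrays. In the 2 fits with 0 calls, 8 members had an unadjusted p under 0.05, beside 5.93% of all tested probe sets lower by that rule without WKY replicate 1 and 6.81% without WKY replicate 2. X70369_s_at passed in 4 of these 6 fits, with log2 changes of -1.98 to -1.54 and limma adjusted p from 0.0174 to 0.0608. Col5a1 and rc_AI231472_s_at of Col1a1 passed in 0 of 6. Without SHR replicate 2, the array with the high hexokinase ratio, the 9 changes ran from -1.54 to -0.51.

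Among 3139 other genes, those whose centred log2 values lay closest to the mean of the members, by root mean square difference over the 6 arrays, were Irf1 (0.120), Eln (0.126), Lgals3 (0.148), Ucp2 (0.151), Fn1 (0.161) and Lum (0.162). The median over all genes compared was 0.577, and the members' own probe sets stood at 0.102 to 0.437. Eln, which encodes the elastic fibre protein elastin, read 3656.6, 2299.0 and 2780.4 in SHR and 5766.5, 5177.2 and 4359.4 in WKY, a change of -0.79 ± 0.20 that did not pass (SE; limma adjusted p = 0.11). Irf1, an interferon-responsive transcription factor, stood at -0.97 (limma adjusted p = 0.0659, as in the parentheses after later changes). Lgals3, the galactose-binding lectin galectin-3, fell by 1.10 (0.014) and Ucp2, a mitochondrial carrier, fell by 1.14 (0.00269). The likeness was measured on the same 6 arrays and includes the strain difference itself.

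The genes that act on collagen were followed in lists, with each gene read by its brightest tested probe set. Over all 3144 genes read in this way, 0.763% were called lower in SHR and 0.891% higher, and the median change was -0.01. Of these genes 1622 had a negative sign. Over tested probe sets, not genes, 7.11% were lower at an unadjusted p under 0.05. The maturation list holds the hydroxylases, chaperones, propeptide proteases and cross-linking enzymes that turn the chains into stable fibrils. Of its 11 genes tested, 0 passed in either direction, 2 had an unadjusted p under 0.05, and the median was -0.01. Pcolce, which speeds the removal of the C-terminal propeptide, read 6386.0, 8633.6 and 6145.7 in SHR, against 9596.7, 9167.6 and 11169.1 in WKY. The strains did not overlap, and the change of -0.50 ± 0.17 did not pass (SE; limma adjusted p = 0.224). Serpinh1, the collagen chaperone HSP47, stood at -0.21 and the prolyl hydroxylase gene P4ha1 at 0.02, both picked after their values were seen. Lox, the cross-linking lysyl oxidase, stood at -0.44 ± 0.19 (0.369), and P3h4, a partner of the hydroxylases, at -0.48 ± 0.20 (0.345).

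The proteins that coat or bind collagen fibrils gave 1 call among 9 genes tested, with 4 lower at an unadjusted p under 0.05 and a median of -0.26. Fn1, which encodes fibronectin, on which collagen fibrils assemble, read 1052.7, 1028.3 and 822.1 in SHR and 2436.9, 2140.4 and 1776.5 in WKY. It fell by 1.00 ± 0.19 (SE; limma adjusted p = 0.0481). Its other tested probe sets overlapped between strains, at -0.46 (0.659) and -0.58 (0.662). Its call was lost in each of the 6 fits without 1 array (limma adjusted p from 0.074 to 0.16) and with the run as a block (-0.89, 0.391). Dcn, the fibril-coating proteoglycan decorin, read 3592.4, 1575.9 and 2747.8 in SHR and 10546.8, 6218.1 and 5574.9 in WKY by its brightest probe set, at -1.45 ± 0.33 (0.0786). Lum, the related lumican, stood at -1.0 ± 0.25 (0.108). The strains were apart in both of these probe sets, though neither passed. The other tested probe sets of Dcn, picked after their values were seen, stood at -1.74 (0.0476), -0.94 (0.13) and -0.87 (0.395). The last of them overlapped between strains. Sparc, a collagen-binding glycoprotein picked likewise, stood at 0.09 by its brightest probe set and at -0.56 to -0.25 by its other 3, with none called.

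Of 3 collagen receptor genes tested, 1 was called. Itga1, the integrin alpha 1 chain that binds collagen, read 2539.6, 2782.4 and 2946.4 in SHR and 5757.2, 6097.7 and 6998.7 in WKY, and fell by 1.14 ± 0.15 (SE; limma adjusted p = 0.0088). The strains were far apart and the change stood at -1.24 with the run as a block, where the call was lost (0.105). It passed in 5 of the 6 fits without 1 array, and had a limma adjusted p of 0.0521 without SHR replicate 2. Its partner Itgb1 was at -0.01 (0.991), and Ddr1, a receptor tyrosine kinase for collagen, at 0.43 (0.406).

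Among 7 genes of collagen breakdown and its inhibitors, 0 passed in either direction and the median was -0.13. One gene, Mmp14, a membrane-bound collagenase, was higher at an unadjusted p under 0.05, and read 10729.5, 13843.4 and 10599.3 in SHR against 6373.2, 9204.2 and 6704.0 in WKY. The strains did not overlap, and the change of 0.65 ± 0.18 did not pass (SE; limma adjusted p = 0.141). Timp2, a protease inhibitor, stood at -0.54 (0.419) and Ctsk, the collagen-degrading cathepsin K, at -0.57 (0.43). Mmp2, picked after its values were seen, was at 0.24 by its brightest probe set and fell by 1.81 by a dimmer one (0.014), a call lost with the run as a block (0.172). Of 11 regulators of collagen transcription 0 passed and 1 had an unadjusted p under 0.05, with a median of -0.17, Ybx1 at 0.57 (0.266), Tgfb3 at 0.40 (0.485) and Nfyb at -0.27 (0.619). Of 4 other collagen genes tested 0 passed and 0 had an unadjusted p under 0.05, at a median of -0.01, with Col15a1 at -0.22 (0.732), Col4a3 at 0.21 (0.75) and Col12a1 at -0.14 (0.848).

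**Figure D4:**
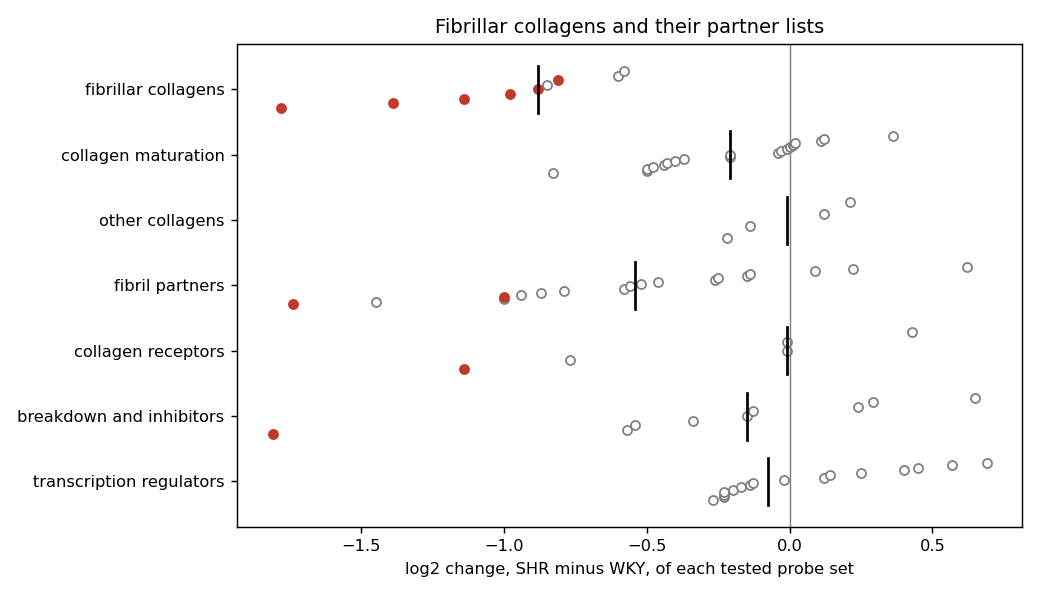
Log2 change (SHR minus WKY, horizontal axis) of each tested probe set of the fibrillar collagens and of 6 partner lists. Filled points have a limma adjusted p under 0.05, and vertical bars are medians over probe sets. The fibrillar collagens all lie left of 0 with a median of -0.88, and the lists have medians of -0.54 (fibril partners) to -0.01.

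Markers of the cell types that a whole gland can hold are given beside these changes. Cortex and chromaffin markers matched the labelled tissue, with Star at 59059.1 to 93172.1 in SHR and 73500.1 to 105012.6 in WKY, and Th at 9722.9 to 14782.4 in SHR and 10446.0 to 13405.1 in WKY. Of 7 tested fibroblast and capsule markers, 0 passed, 3 had an unadjusted p under 0.05 and 6 had a negative sign, at a median of -0.21. Over all genes read by their brightest probe set, 1622 of 3144 had a negative sign. Summed over every probe set of the listed genes, tested or not, intensity was 13632 to 19339 in SHR and 24523 to 36631 in WKY. A gene with several probe sets, such as Dcn here, counts more than once in this and the later sums. The matrix and filament genes of that list carried the difference, with Vim at -0.89 (limma adjusted p = 0.162) beside Dcn and Lum. The surface receptor genes Pdgfra and Pdgfrb stood at 0.04 and -0.04 and Thy1 at -0.13. Of 4 tested smooth muscle markers 1 was called, Acta2, higher by 1.34 (0.00491), while Tagln and Myl9 stood at 0.14 each and Myh11 at -0.14. The list had a median of 0.14 and a summed intensity of 19710 to 27004 in SHR and 14924 to 19132 in WKY.

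Of 5 tested fat cell markers 1 fell, Cfd, the protease adipsin, at 1744.0, 1188.5 and 1905.7 in SHR and 11113.8, 7340.7 and 3957.9 in WKY (-2.0, limma adjusted p = 0.0324). Fabp4, the fat cell lipid carrier, read 1599.2, 2728.7 and 4573.3 in SHR and 16168.1, 8506.7 and 3869.0 in WKY, and overlapped. Lpl, Lep and Pparg stood at 0.38, 0.00 and 0.04, and the list median was 0.00. Other tested probe sets stood at -0.54, without overlap, and -0.03 for Lpl and at -0.66 for Lep, with none called. The median over the 8 tested probe sets was -0.29. The brightest Lep probe set read 16176.9 to 18381.1 over the arrays, a large part of the list sum. The list summed to 36558 to 37879 in SHR and 37163 to 69088 in WKY. Of 4 leukocyte markers 1 fell, Cd74, the class II invariant chain, by 1.76 (limma adjusted p = 0.0429). Ptprc, Cd4 and Lyz2 stood at 0.05, -0.43 and -0.06, with none called. The leukocyte list summed to 15369 to 19184 in SHR and 23386 to 49821 in WKY, with Cd74 entering through several probe sets. Of 4 endothelial markers 0 passed (median 0.02), with sums of 6744 to 8120 in SHR and 5558 to 8334 in WKY. Of 7 chromaffin markers 1 fell, Dbh, the enzyme that makes noradrenaline, by 1.29 (0.00548). In that list 6 of 7 had a negative sign, beside 1622 of all 3144 genes. Of the 7, 4 had an unadjusted p under 0.05, and the median was -0.53. The list summed to 39429 to 51050 in SHR and 52925 to 60968 in WKY. The lowest deposited intensity was 0.6, so no marker gene could be at 0, and presence of a marker was not tested. With the run as a block the marker calls were lost, with limma adjusted p of 0.118 for Acta2, 0.126 for Dbh, 0.232 for Cd74 and 0.319 for Cfd. Cfd and Cd74 each passed in 1 of the 6 fits without 1 array, the one without WKY replicate 3. The kidney, skeletal muscle and Schwann cell and nerve lists each had 0 calls. Kap, a kidney marker under the filter, read 2050.3 in WKY replicate 1 and 18.9 to 58.7 in the other arrays. Umod, Slc12a1 and Aqp2 were not highest in that array. S100b, a nerve marker also under the filter, read 1941.3 there by S53527mRNA_s_at and 123.2 to 375.3 elsewhere. By its other probe set S100b was lowest there, at 291.3. The part of these cell types in the collagen difference was not tested.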

How the data were processed

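Each sample's strain and replicate number came from its title. The authors deposited a linear intensity for every probe set (lowest 0.6), 1 table column to an array. How it was computed and scaled is not stated in the labels or headers. All 6 arrays had a trimmed mean (2% from each end) of 2499.9. Hybridization times in the deposited settings files, read as hour and minute without the date, were split into 2 runs at a gap of over 60 minutes. The files also gave module and station. Control probe sets (59) were dropped. Of the other 8740, the platform annotation gave 7006 a single gene symbol, 308 several and 1426 none.

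Values were taken as log2(intensity + 181.5), the 20th percentile of values above 0, so changes of dim probe sets are understated. Probe sets with a mean log2 value above the 40th percentile (5244) were fitted with limma 3.58.1 in R 4.3.3 (lmFit, eBayes with an intensity trend) over all 6 arrays, two-sided, with Benjamini-Hochberg adjustment over all of them. The fit was tested on simulated data. The number of arrays limits the precision.

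Members and lists were chosen with earlier results of these data known. Genes named are the members, called list genes, up to 3 of smallest p per partner list and the 6 closest in pattern. Others are said to be picked later, apart from the cell markers, of which only examples are given.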

Additional observations from a re-analysis of the deposited data

How the results depend on the processing

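All 9 fibrillar collagen changes stayed negative under every alternative run. Of the 9 probe sets, 6 were called in the fit over all arrays. In contrast, 3 were called with no filter, where more probe sets share the adjustment, 1 by eBayes without a trend, 2 with the module as a block and 0 with the run as a block or in the first run alone. By the brightest probe set, 4 of the 5 genes were called, against 1 without a trend, 2 with the module as a block and 0 with the run as a block or in the first run alone. Partner lists gave 2 calls, against 1 with a common median, a pseudocount of 1, no filter or no trend, and 0 with the module or the run as a block or in the first run alone. All tested probe sets gave 102 calls, against 83 of 8740 with no filter, 60 without a trend, 46 with the module and 20 with the run. Same-numbered arrays showed no strong shared deviation, with correlations of 0.000882, 0.0105 and 0.0712. Arrays of different number gave -0.0535 to 0.0479. Whether the samples were collected or processed in pairs cannot be told from these values. With the replicate number as a block, 2 collagen probe sets, 2 collagen genes and 53 probe sets in all were called. With each array left out in turn the counts ran from 0 to 4 for the collagen probe sets, 0 to 3 for their genes, 0 to 1 for the partner lists and 38 to 59 for all probe sets. The cause of these lost calls was not tested. Some of the fits also had fewer samples. Over single genes, 170 values kept their sign and side of the threshold, 105 kept their sign and lost the call, and 0 reversed. The 170 include every fit of the 3 collagen probe sets not called over all arrays, which had no call to lose. These were 18 fits each for Z78279_at and M21354_s_at and 19 for Col5a2.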
